A study of Mus musculus with 12 samples.

Results

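The receptors for the cytokine BAFF, the receptor CD40 and the TRAF adaptor proteins that these receptors recruit were followed in mouse splenic B cells. The set held 9 genes, named by symbol: Tnfrsf13b, Tnfrsf13c, Tnfrsf17, Cd40, Traf1, Traf2, Traf3, Traf5 and Traf6. Every probe set annotated to one of these symbols alone was taken, which gave 16 of the 45037 probe sets tested and 8 of the 18193 genes with a probe set of their own. Tnfrsf13b, Tnfrsf13c, Tnfrsf17 and Traf2 had 1 probe set each, Traf1 and Traf5 had 2, Cd40 had 3 and Traf6 had 5. Traf3 had no probe set of its own in the annotation and was not analysed here.

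The 4 groups were transgenic B cells after 2 days with lipopolysaccharide (LPS, 20 µg/ml) and interleukin 4 (IL-4, 10 ng/ml), wild type B cells after the same stimulation, unstimulated transgenic B cells and unstimulated wild type B cells. Each group held 3 arrays, described by the submitters as independent biological replicates. The transgenic mice carried EFLmDREAM, a form of DREAM, the calcium-binding protein encoded by Kcnip3, which also binds DNA and represses transcription. The strain, the age of the mice and the promoter that drives the transgene are not stated by the sources used here. All cells came from spleen by removal of cells that carry CD43, which include T cells, most myeloid cells and plasma cells, with a stated purity above 98%.

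BAFF and its relative APRIL are ligands that keep mature B cells and plasma cells alive. BAFF binds 3 receptors: BAFF-R (Tnfrsf13c), on which the survival of mature B cells rests, TACI (Tnfrsf13b), which tunes responses to antigens that need no T cell help, and BCMA (Tnfrsf17), best known from plasma cells. CD40 receives the help of T cells through CD40 ligand. None of these receptors has enzyme activity of its own: the bound TRAF proteins act as adaptors, several of them as ubiquitin ligases. TRAF2 and TRAF3, together with the ligases cIAP1 and cIAP2, keep the kinase NIK low until a receptor is engaged, after which the alternative NF-kB pathway runs. TRAF6 serves CD40 and also TLR4, the receptor for LPS, on the way to canonical NF-kB.

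The promoters of Traf1, Traf5 and Traf6 are shown because these adaptors had the largest changes with stimulation, Traf1 in one direction and the others in the opposite one. Each sequence is the RefSeq window of GRCm38.p6 from 250 bases before to 50 bases after a start, written along the gene's own strand. For Traf5 and Traf6 that start is the outer boundary of the gene. For Traf1 it lies inside the gene, downstream of the boundary at 34961812. Capitals mark GTCA, the core of the DRE sequence that DREAM binds, and TGAC, the same letters on the opposite strand.
Traf1, chr2:34961723-34962022, minus strand: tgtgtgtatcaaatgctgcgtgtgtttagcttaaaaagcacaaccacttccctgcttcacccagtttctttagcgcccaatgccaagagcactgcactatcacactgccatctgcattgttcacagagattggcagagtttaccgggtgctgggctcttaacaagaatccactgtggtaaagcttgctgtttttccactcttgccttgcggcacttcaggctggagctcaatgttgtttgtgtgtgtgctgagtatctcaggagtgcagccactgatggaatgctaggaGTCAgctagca
Traf5, chr1:192092550-192092849, minus strand: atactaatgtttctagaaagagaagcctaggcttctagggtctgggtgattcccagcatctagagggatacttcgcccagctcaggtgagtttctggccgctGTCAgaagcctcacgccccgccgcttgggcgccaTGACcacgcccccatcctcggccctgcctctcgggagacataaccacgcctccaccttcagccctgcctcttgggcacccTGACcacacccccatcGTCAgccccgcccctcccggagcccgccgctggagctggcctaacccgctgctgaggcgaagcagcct
Traf6, chr2:101678170-101678469, plus strand: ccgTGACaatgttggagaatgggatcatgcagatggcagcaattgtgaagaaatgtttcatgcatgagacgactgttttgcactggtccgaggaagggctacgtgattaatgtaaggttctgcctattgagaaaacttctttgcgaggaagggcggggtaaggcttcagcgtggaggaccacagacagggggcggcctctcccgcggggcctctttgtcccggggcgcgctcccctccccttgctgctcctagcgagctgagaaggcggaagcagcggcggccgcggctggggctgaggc
Positions count the base at the start used for each window as 1. The Traf1 window held the core once, at position 40, the Traf6 window once, at -247, and the Traf5 window 4 times, at -148, -114, -34 and -18. These letters occur in 85.2% of 32851 promoter windows of this length, so a match is common. A kappaB consensus (8.46% of all windows) and a STAT6 site, TTC and GAA with 4 bases between them (6.95%), were searched on both strands as well and matched in none of the 3 windows shown. A match is a description of the letters, and no match says only that they are not in this window. RefSeq windows were found for 8 of the 9 genes. The core was counted 3 times in Tnfrsf13b, 2 times in Tnfrsf13c, 7 times in Traf2 and not in Tnfrsf17 or Traf3, and the kappaB consensus matched once, in Traf3.

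Levels are the log2 probe set values that the authors deposited, and differences are given on the log2 scale with the SE of a limma fit to 3 arrays a group. A difference was called when its p, adjusted by Benjamini and Hochberg over all 45037 probe sets, was under 0.05. Array medians were 5.36 to 5.41 in stimulated and 5.97 to 6.05 in unstimulated arrays, so differences by stimulation were taken after quantile normalization, while differences by genotype were taken as deposited. Correlations between arrays of a group were 0.984 to 0.997, and precision is limited by having 3 of them. One array differed from the rest in its control probe sets, unstimulated wild type replicate 1: its actin controls differed by -2.22 between the 5′ and the 3′ end, against -0.67 to -0.54 in the other 5 unstimulated arrays and -1.36 to -0.43 in the stimulated ones. Results that involve it are given with and without it where it matters. Kcnip3 itself differed between transgenic and wild type cells by 0.030 ± 0.12 when stimulated (adjusted p = 0.976) and by 0.23 ± 0.12 when unstimulated (adjusted p = 0.279) at its brighter probe set. No source used here says whether that probe set reads the transgene, so it does not check the labels. All 8 measured B cell markers lay above the mean array median in each of the 4 groups.

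TACI rose slightly with stimulation and was not called between the genotypes. Tnfrsf13b (chromosome 11, 61126283 to 61153170) read 11.61, 11.60 and 11.68 in stimulated transgenic and 11.65, 11.73 and 11.96 in stimulated wild type cells. In unstimulated cells it read 10.93, 11.13 and 11.10 in transgenic and 11.11, 11.17 and 11.10 in wild type cells. Every stimulated array was above every unstimulated one, and the genotypes overlapped in each state. With stimulation Tnfrsf13b rose by 0.25 ± 0.089 in transgenic cells (1.19-fold, adjusted p = 0.0282) and by 0.33 ± 0.089 in wild type cells (1.26-fold, adjusted p = 0.00673). The call in transgenic cells was lost without unstimulated replicate 1 (0.19, adjusted p = 0.12) and without stimulated replicate 1, 2 or 3 (adjusted p = 0.0568, 0.0531 and 0.0743). Transgenic minus wild type, Tnfrsf13b differed by -0.15 ± 0.089 in stimulated (adjusted p = 0.619) and by -0.073 ± 0.089 in unstimulated cells (adjusted p = 0.677).

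BAFF-R was not called in any comparison. Tnfrsf13c (chromosome 15, 82221742 to 82224380) read 11.37, 11.44 and 11.37 in stimulated transgenic and 11.74, 11.50 and 11.48 in stimulated wild type cells, and 11.11, 11.07 and 11.07 in unstimulated transgenic and 11.24, 11.25 and 11.42 in unstimulated wild type cells. In both states each transgenic array lay below each wild type array. The difference was -0.18 ± 0.085 in stimulated cells (adjusted p = 0.461) and -0.22 ± 0.085 in unstimulated cells (adjusted p = 0.128), and neither was called. After quantile normalization the stimulation change of Tnfrsf13c was 0.0049 ± 0.085 in transgenic (95% interval -0.18 to 0.19) and -0.058 ± 0.085 in wild type cells (-0.24 to 0.13). On the deposited scale both changes were positive and called (0.31 and 0.27, adjusted p = 0.00465 and 0.0104), so the direction for this receptor depends on the scaling between states.

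After quantile normalization CD40 rose slightly at 1 of its probe sets. Cd40 (chromosome 2, 165055614 to 165071654) was read by 3 probe sets, of which 1439221_s_at was brightest. That probe set read 9.75, 9.99 and 9.98 in stimulated transgenic and 10.07, 10.09 and 10.04 in stimulated wild type cells, and 9.58, 9.48 and 9.55 in unstimulated transgenic and 10.01, 9.57 and 9.61 in unstimulated wild type cells. Wild type unstimulated replicate 1, the array with the low actin 5′ signal, was the high one. The brightest probe set changed by 0.27 ± 0.11 in transgenic (adjusted p = 0.0556) and by 0.23 ± 0.11 in wild type cells (adjusted p = 0.0952), and by 0.36 in wild type cells without that array (adjusted p = 0.00416). A second probe set, 1449473_s_at, rose by 0.31 ± 0.085 in transgenic (1.24-fold, adjusted p = 0.00748) and by 0.39 ± 0.085 in wild type cells (1.31-fold, adjusted p = 0.00158). The third, 1460415_a_at, was not called in either genotype (0.042 and 0.20), and over the 12 arrays it correlated with the others at -0.19 and 0.055, while they correlated with each other at 0.92. As deposited, the brightest probe set was called higher too (0.37 in transgenic and 0.34 in wild type cells, adjusted p = 0.00793 and 0.0133). On that scale 1460415_a_at was called in wild type cells alone (0.28, adjusted p = 0.04). With array medians subtracted all 3 were called higher in both genotypes, by 0.81 to 1.10. The calls and sizes for Cd40 thus depend on the scaling between states. Between the genotypes no Cd40 probe set was called in either state. At the brightest one the difference was -0.16 ± 0.11 in stimulated cells (adjusted p = 0.703) and -0.19 ± 0.11 in unstimulated cells (adjusted p = 0.315).

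BCMA fell with stimulation. Tnfrsf17 (chromosome 16, 11313232 to 11320074) read 5.25, 5.14 and 5.10 in stimulated transgenic cells and 5.02, 4.85 and 4.79 in stimulated wild type cells, all below the medians of their arrays. Unstimulated cells read 6.77, 6.92 and 7.33 in transgenic and 6.94, 6.03 and 5.92 in wild type mice. The wild type values of 6.03 and 5.92 lay close to their array medians of 5.99 and 6.02. Stimulated cells were below unstimulated cells throughout, and in the unstimulated state wild type replicate 1 lay among the transgenic values. The change with stimulation was -1.24 ± 0.23 in transgenic cells (2.37-fold lower, adjusted p = 0.000481) and -0.80 ± 0.23 in wild type cells (1.74-fold lower, adjusted p = 0.00973). The wild type change was -0.46 without unstimulated replicate 1 (adjusted p = 0.0341). These are bulk samples, in which fewer cells of a type and less RNA per cell cannot be told apart.

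Between the unstimulated genotypes Tnfrsf17 differed by 0.71 ± 0.22 (1.64-fold, 95% interval 0.24 to 1.18), which was not called (adjusted p = 0.0603). It was 1.03 and called without wild type unstimulated replicate 1 (adjusted p = 0.000664), and over its 12 alternatives the adjusted p was 0.000664 to 0.231. Plasma cell markers differed the same way in the 6 unstimulated arrays: 9 of 12 were called higher in transgenic cells (10 without that wild type array) and 0 lower, with a median of 0.56, where 5.45% of all genes were called higher. Their summed linear level was 26500 to 27253 in transgenic and 18029 to 19849 in wild type cells. All 12 lay above the mean array median in both groups, and the part of these cells in the Tnfrsf17 difference was not tested. In stimulated cells 7 of the 12 were called higher and 0 lower (median 0.48), where 1.24% of all genes were called higher, and Tnfrsf17 differed by 0.28 ± 0.22 with no overlap between the genotypes (adjusted p = 0.762).

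**Figure D1:**
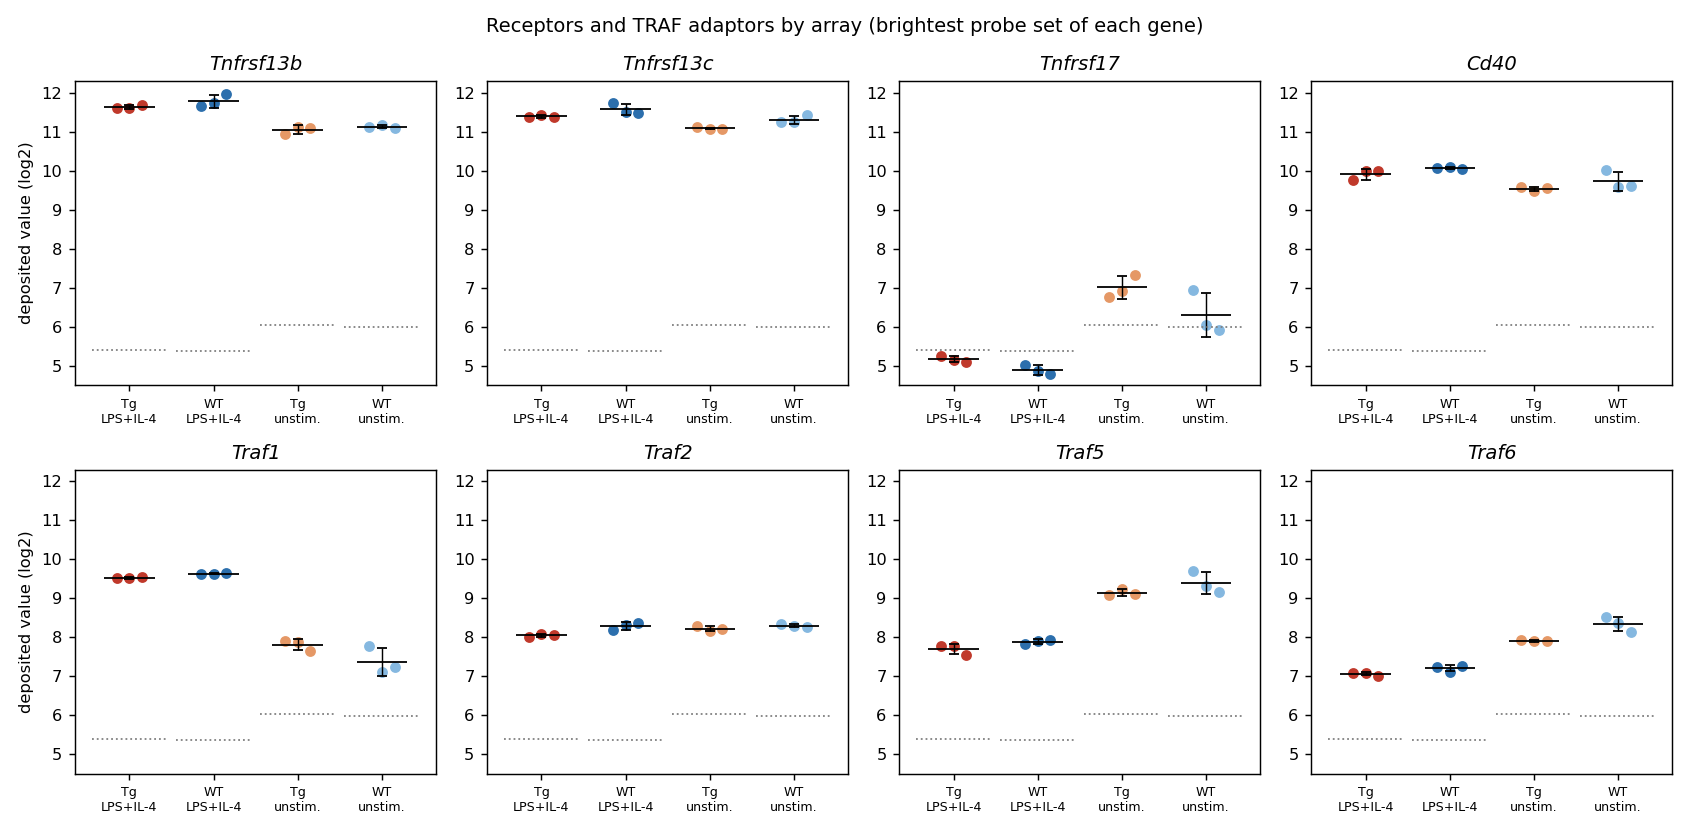
Deposited log2 values of the brightest probe set of each gene, 1 point per array, in stimulated transgenic (Tg), stimulated wild type (WT), unstimulated transgenic and unstimulated wild type cells. Solid bars are means with SD (n = 3) and dotted lines are the mean array median of the group. Traf1 sits highest in the stimulated groups, Traf5, Traf6 and Tnfrsf17 sit highest in the unstimulated ones, and Tnfrsf17 lies below the dotted line in stimulated cells.

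Of the 16 probe sets, one of Traf1 had the largest change with stimulation. TRAF1 lacks the RING domain of its relatives and binds TRAF2 at the receptor. Traf1 (chromosome 2, 34941750 to 34961812) read 9.51, 9.51 and 9.55 in stimulated transgenic and 9.62, 9.63 and 9.66 in stimulated wild type cells at its brightest probe set, 1423602_at. Unstimulated cells read 7.91, 7.87 and 7.65 in transgenic and 7.77, 7.11 and 7.23 in wild type mice. The states were far apart and the spread in each stimulated group was small. With stimulation Traf1 rose by 1.90 ± 0.14 in transgenic (3.72-fold, adjusted p = 1.1e-07) and by 2.48 ± 0.14 in wild type cells (5.58-fold, adjusted p = 7.68e-09).

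The stimulation change of Traf1 in transgenic minus that in wild type cells was -0.55 ± 0.19, which was not called (adjusted p = 0.221). It was -0.75 and called without wild type unstimulated replicate 1 (adjusted p = 0.00663), and over its 17 alternatives the adjusted p was 0.00663 to 0.376. In unstimulated cells Traf1 differed by 0.44 ± 0.14 (1.36-fold, adjusted p = 0.0635), transgenic minus wild type, and without that array by 0.64 (adjusted p = 0.000839). After quantile normalization of all arrays it was 0.51 and called as well (adjusted p = 0.0364). In stimulated cells all 3 transgenic arrays lay below all 3 wild type arrays, with a difference of -0.11 ± 0.14 (adjusted p = 0.88). The other Traf1 probe set, 1445452_at, was called in no comparison. It differed by 0.41 ± 0.29 in stimulated and by 0.57 ± 0.29 in unstimulated cells (adjusted p = 0.717 and 0.26), transgenic minus wild type, with no overlap between the unstimulated genotypes. Its values ran from 6.98 to 8.37 within stimulated wild type cells alone, and over the 12 arrays it correlated at -0.18 with 1423602_at.

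Traf5 moved the other way. TRAF5 is a close relative of TRAF2 and TRAF3 that has been described in mouse B cells as a brake on TLR responses. Traf5 (chromosome 1, 191997203 to 192092599) read 7.79, 7.77 and 7.54 in stimulated transgenic and 7.82, 7.90 and 7.94 in stimulated wild type cells. In unstimulated cells it read 9.09, 9.24 and 9.10 in transgenic and 9.70, 9.32 and 9.16 in wild type mice. Every stimulated array lay below every unstimulated array. The change was -1.29 ± 0.11 in transgenic cells (2.44-fold lower, adjusted p = 5.31e-07) and -1.37 ± 0.11 in wild type cells (2.58-fold lower, adjusted p = 2.67e-07). The second probe set, 1447682_x_at, fell as well (-0.45 and -0.52) but lay below the array medians in all 4 groups, and its suffix marks probes that may match other sequences. The genotypes differed by -0.19 ± 0.12 in stimulated (adjusted p = 0.676) and by -0.25 ± 0.12 in unstimulated cells (adjusted p = 0.232), and without wild type unstimulated replicate 1 the unstimulated difference was -0.097 (adjusted p = 0.679).

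Traf6 fell at 4 of its 5 probe sets in both genotypes. Traf6 (chromosome 2, 101678420 to 101701668) read 7.09, 7.09 and 7.02 in stimulated transgenic and 7.23, 7.12 and 7.27 in stimulated wild type cells at its brightest probe set, 1435350_at. Unstimulated cells read 7.94, 7.90 and 7.90 in transgenic and 8.51, 8.36 and 8.14 in wild type mice. No group overlapped with the next at this probe set. The change with stimulation was -0.42 ± 0.082 in transgenic (1.34-fold lower, adjusted p = 0.000689) and -0.77 ± 0.082 in wild type cells (1.70-fold lower, adjusted p = 3.19e-06).

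A second Traf6 probe set, 1421376_at, fell more. It read 6.17, 5.97 and 6.16 in stimulated transgenic and 6.12, 6.18 and 6.16 in stimulated wild type cells, and 7.82, 7.87 and 7.74 in unstimulated transgenic and 7.90, 7.77 and 7.61 in unstimulated wild type cells. Here the genotypes overlapped in both states. Its change was -1.22 ± 0.083 in transgenic (2.33-fold lower, adjusted p = 5.14e-08) and -1.07 ± 0.083 in wild type cells (2.11-fold lower, adjusted p = 1.56e-07). A further pair, 1421377_at (-0.88 in transgenic and -0.90 in wild type cells) and 1443288_at (-0.48 and -0.49), was called lower in both genotypes. The fifth, 1446940_at, was not called (-0.12 and 0.021). Both 1446940_at and 1443288_at lay below the array medians in all groups, and 1421377_at did so in stimulated cells. The 4 that fell correlated with each other at 0.77 to 0.95 over the 12 arrays, and the fifth correlated with them at -0.20 to 0.18.

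Traf6 was the one gene of the set called between the genotypes with all arrays on the deposited scale. At 1435350_at unstimulated transgenic minus wild type cells gave -0.42 ± 0.090 (1.34-fold lower, 95% interval -0.62 to -0.23, adjusted p = 0.0111). The call held without each of the 6 unstimulated arrays in turn, with -0.34 (adjusted p = 0.0342) without wild type replicate 1, and it was lost when only these 6 arrays were fitted (adjusted p = 0.0709). None of the other Traf6 probe sets was called. Of these, 1421377_at differed in the same direction, by -0.22 (95% interval -0.40 to -0.036, adjusted p = 0.13). The differences were 0.050 at 1421376_at, 0.24 at 1446940_at and -0.017 at 1443288_at. The sources used here do not place the probe sets on the transcript. In stimulated cells 1435350_at differed by -0.14 ± 0.090 (adjusted p = 0.669), and the difference of the stimulation changes was 0.28 ± 0.13 (adjusted p = 0.361).

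Traf2 encodes the adaptor that holds the cIAP ligases at the receptor. Traf2 (chromosome 2, 25517982 to 25546940) read 8.02, 8.08 and 8.05 in stimulated transgenic and 8.18, 8.31 and 8.38 in stimulated wild type cells, and 8.28, 8.17 and 8.22 in unstimulated transgenic and 8.34, 8.30 and 8.26 in unstimulated wild type cells. Within the stimulated state, the transgenic arrays lay below the wild type arrays without overlap. That difference was -0.24 ± 0.073 (95% interval -0.40 to -0.082) and was not called (adjusted p = 0.151). In unstimulated cells it was -0.077 ± 0.073 (adjusted p = 0.576). Stimulation changed Traf2 by 0.093 ± 0.072 in transgenic (adjusted p = 0.293) and by 0.23 ± 0.072 in wild type cells (adjusted p = 0.0136). The wild type call was lost without stimulated replicate 3 (0.20, adjusted p = 0.0521), and the value was -0.010 on the deposited scale, so no direction is given for Traf2.

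**Figure D2:**
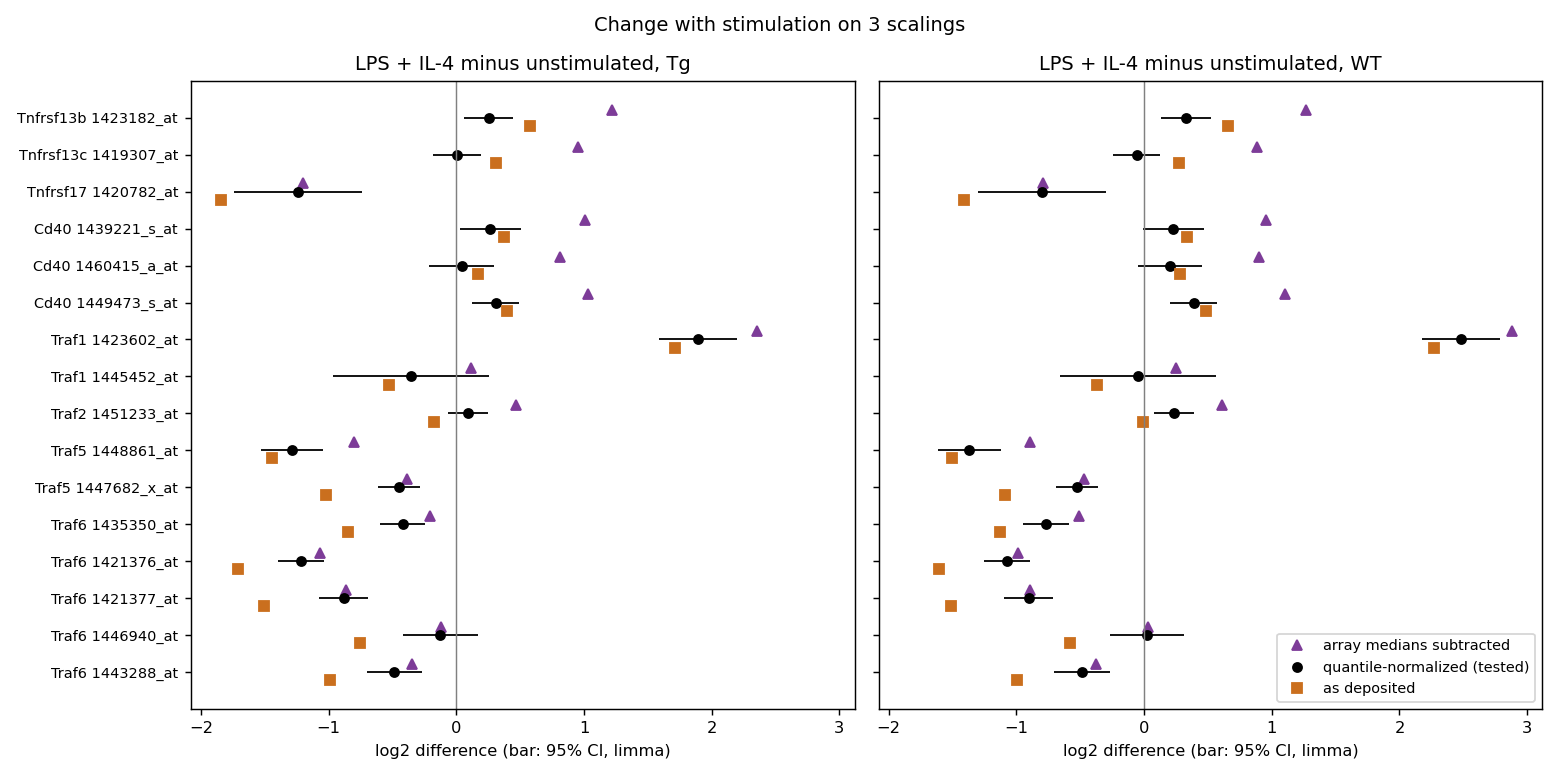
Change with LPS and IL-4 for all 16 probe sets, on the log2 scale, in transgenic (left) and wild type cells (right). Circles with 95% confidence intervals are the tested, quantile-normalized values, squares the deposited values and triangles values with each array's median subtracted. Traf1 1423602_at stands at 1.90 and 2.48, Traf5 1448861_at at -1.29 and -1.37, and Tnfrsf13c near 0 on the tested scale but right of 0 on the others.

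Over the 16 probe sets, stimulation changed 10 in transgenic cells, 3 higher and 7 lower, where 55.2% of all probe sets were called (30.1% higher, 25.1% lower). In wild type cells 11 changed, 4 higher and 7 lower, where 56.8% of all were called (30.7% higher, 26.1% lower). The share called was therefore close to that of the array as a whole. The median change of the 16 was -0.24 in transgenic and -0.053 in wild type cells, against 0.040 and 0.037 over all probe sets. Changes of at least 1 on the log2 scale were called for 4 of the 16 in transgenic cells (15.8% of all) and for 3 in wild type cells (16.8% of all). The split of all called probe sets moved with the scaling: 54.6% were higher in transgenic and 54% in wild type cells after quantile normalization, against 17.5% and 17.9% as deposited and 73.3% and 70.9% with array medians subtracted. The median of all changes was -0.40 as deposited in both genotypes, and 0.24 in transgenic and 0.22 in wild type cells with medians subtracted. On all of these scales 9 of the 10 calls in transgenic cells kept direction and significance, with Traf6 1435350_at the exception (-0.21 with medians subtracted, adjusted p = 0.0755). In wild type cells 10 of the 11 did, with Traf2 the exception.

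Between the genotypes few of the 16 probe sets were called, and in a set of this size the counts do not set it apart from the array as a whole. In stimulated cells none of the 16 probe sets was called by limma, where 1.86% of all were, and 3 had an unadjusted p under 0.05. In unstimulated cells 1 was called, a lower one, where 9.45% of all were (4.47% higher, 4.98% lower), and 5 had an unadjusted p under 0.05. The uncalled differences ran from -0.24 to 0.41 in stimulated and from -0.25 to 0.71 in unstimulated cells. The median difference was -0.13 in stimulated and -0.075 in unstimulated cells, against 0.0067 over all probe sets in each state. In unstimulated cells 3 of the 16 were called without wild type replicate 1, Tnfrsf17 and Traf1 higher and Traf6 lower. The count was 3 without wild type replicate 3 as well, all of Traf6: 1435350_at and 1421377_at (-0.29) lower and 1446940_at (0.42) higher. No interaction of genotype and stimulation was called among the 16, where 1.58% of all were, and 2 had an unadjusted p under 0.05. Of the 16, 0 had a called difference of at least 1 on the log2 scale between the stimulated genotypes (0.344% of all), the unstimulated genotypes (1.15%) or in the interaction (0.562%). These comparisons share arrays: unstimulated wild type cells serve the genotype difference, the wild type stimulation change and the interaction.

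The small differences in stimulated cells ran mostly one way at the brightest probe sets. At the brightest probe set, transgenic and wild type arrays did not overlap for 7 of the 8 genes in stimulated cells, where the same held for 22% of all genes. Tnfrsf13c, Cd40, Traf1, Traf2, Traf5 and Traf6 were the 6 lower in transgenic cells (12.2% of all genes), with differences of -0.24 to -0.11, and Tnfrsf17 was the 1 higher (9.76% of all genes). None of these differences was called. Other probe sets of the same genes went both ways, also without a call. Traf1 1445452_at (0.41), Cd40 1460415_a_at (0.053) and Traf6 1446940_at (0.070) were higher in transgenic cells. Cd40 1449473_s_at (-0.22), Traf5 1447682_x_at (-0.030) and Traf6 1421376_at (-0.053), 1421377_at (-0.22) and 1443288_at (-0.010) were lower. After quantile normalization the groups of 6 genes did not overlap (21.7% of all genes), 5 lower (11.5%) and 1 higher (10.2%). With array medians subtracted the count was again 7 (22.1% of all genes), with 6 lower (14.3%). In unstimulated cells 2 of the 8 did not overlap, Tnfrsf13c and Traf6, both lower in transgenic cells, where 25.4% of all genes did not (13.2% higher, 12.2% lower). After quantile normalization the unstimulated count was 2, both lower (26.6% of all genes, 13.3% lower). With array medians subtracted it was 4, all lower (25.9% of all genes, 16% lower), so this count depends on the scaling. Of all probe sets called in unstimulated cells, 36.3% were higher in transgenic cells after subtraction of array medians, against 47.3% as deposited.

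**Figure D3:**
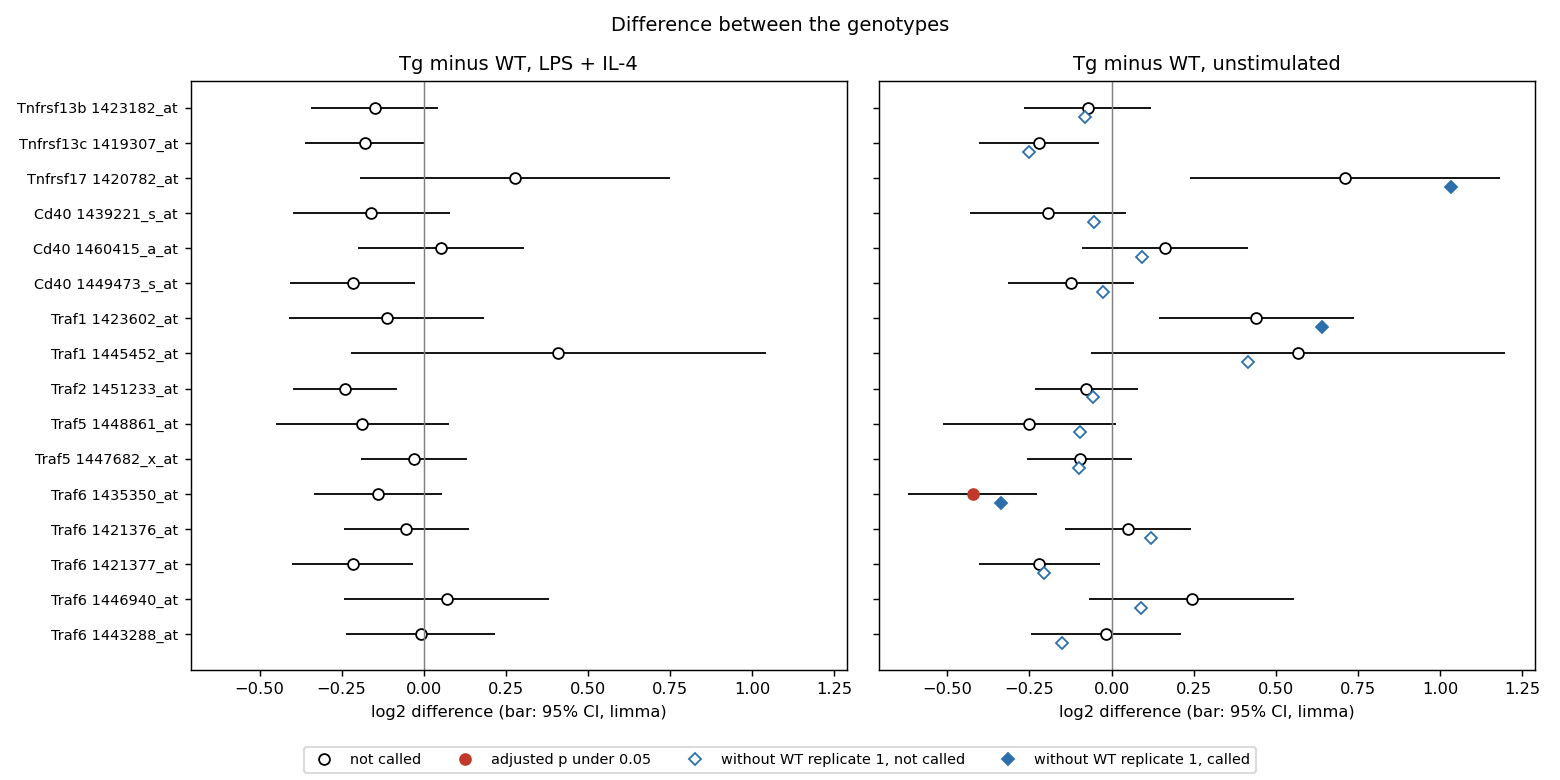
Transgenic minus wild type difference of the 16 probe sets on the log2 scale, in stimulated (left) and unstimulated cells (right). Bars are 95% confidence intervals, filled circles are called, and diamonds give the difference without wild type unstimulated replicate 1, filled where called. With all arrays, on the deposited values drawn here, only Traf6 1435350_at (-0.42) is called. Without that array Tnfrsf17 (1.03) and Traf1 (0.64) are called as well.

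The order of the groups was taken from deposited means ± SD (n = 3). Traf1 averaged 9.52 ± 0.023 in stimulated transgenic and 9.64 ± 0.021 in stimulated wild type cells, and 7.81 ± 0.14 in unstimulated transgenic and 7.37 ± 0.35 in unstimulated wild type cells. Its highest group was stimulated wild type and its lowest unstimulated wild type, with the unstimulated pair overlapping. Tnfrsf17 averaged 5.16 ± 0.078 in stimulated transgenic and 4.89 ± 0.12 in stimulated wild type cells, and 7.01 ± 0.29 in unstimulated transgenic and 6.30 ± 0.56 in unstimulated wild type cells. It was highest in unstimulated transgenic cells, again with the unstimulated pair overlapping. Traf6 at 1435350_at averaged 7.07 ± 0.040 in stimulated transgenic and 7.21 ± 0.078 in stimulated wild type cells, and 7.91 ± 0.023 in unstimulated transgenic and 8.34 ± 0.19 in unstimulated wild type cells, with no overlap between neighbours in this order.

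Of the members, 3 spanned at least 1 on the quantile-normalized scale at their brightest probe set. The genes whose profiles were most like theirs over the 12 arrays, of 10955 expressed genes, were Coq4, Trap1 and Mtx2 for Traf1 (r = 0.996, 0.995 and 0.995), Insr, Zfp384 and Jpt1 for Traf5 (0.996, 0.994 and 0.994), and Pla2g15, Tmem51 and Rab44 for Tnfrsf17 (0.969, 0.966 and 0.954). The 12 points fall into 2 states, and these values describe mainly that split.

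Of the ligands, Tnfsf13b, which encodes BAFF, and Cd40lg were measured and Tnfsf13 was not analysed here. Neither was called in any comparison, with stimulation changes taken after quantile normalization. As deposited, both were called lower after stimulation: the changes were -0.45 in transgenic and -0.59 in wild type cells for Tnfsf13b, and -0.55 and -0.62 for Cd40lg. Tnfsf13b averaged 4.79 in stimulated transgenic and 4.78 in stimulated wild type cells, and 5.24 in unstimulated transgenic and 5.38 in unstimulated wild type cells, below the array medians. Cd40lg averaged 5.48, 5.42, 6.03 and 6.04 in the same groups and the same order.

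Partners and regulators of the TRAF proteins were measured for 26 of 28 listed genes. With stimulation 7 rose and 12 fell in transgenic cells, and 7 rose and 11 fell in wild type cells, where 58.5% (35.2% higher, 23.3% lower) and 60% (36% higher, 24% lower) of all genes were called. Traip, which encodes a ubiquitin ligase first named as a TRAF-interacting protein, rose by 2.11 ± 0.11 in transgenic and 2.01 ± 0.11 in wild type cells. Ube2n, the enzyme that makes the lysine-63 ubiquitin chains of TRAF6, changed by 1.02 ± 0.17 and 0.84 ± 0.17. Tifa, which activates TRAF6 by oligomerization, changed by -2.72 ± 0.098 in transgenic and -3.11 ± 0.098 in wild type cells. Tnfaip3, the A20 deubiquitinase that ends NF-kB signaling, changed by -2.01 ± 0.069 and -1.77 ± 0.069. These 4 kept their direction and call on each scaling, but the list as a whole did not. With array medians subtracted, 14 rose and 2 fell in transgenic and 13 rose and 5 fell in wild type cells, while as deposited 5 rose and 15 fell in transgenic and 6 rose and 17 fell in wild type cells.

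By genotype, none of the 26 was called in stimulated cells, where 2.34% of all genes were called. In unstimulated cells 1 was higher and 2 were lower, where 10.4% of all genes were called (5.45% higher, 4.9% lower). Myd88, the adaptor of TLR4, was higher by 0.43 ± 0.077 in transgenic cells (adjusted p = 0.00404), alongside the myeloid markers described below, whose part was not tested. Tab2, which couples TRAF6 to the kinase TAK1, differed by -0.51 ± 0.13 (adjusted p = 0.0234), and Birc2, which encodes cIAP1, by -0.43 ± 0.12 (adjusted p = 0.0412). When wild type replicate 1 was left out, 0 of the 26 were called lower and 1 higher. Birc2 was the 1 interaction called in this list: its stimulation change was larger in transgenic cells by 0.76 ± 0.17 (adjusted p = 0.0424, and 0.0518 with array medians subtracted), where 1.98% of all genes had a called interaction.

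NF-kB genes downstream of the adaptors were mostly lower after stimulation. Of 7 measured genes of the canonical pathway, 6 fell and 1 rose in each genotype, where 23.3% of all genes fell and 35.2% rose in transgenic and 24% fell and 36% rose in wild type cells. The wild type count was 5 lower without unstimulated replicate 1, with Nfkbia no longer called (-0.17, adjusted p = 0.133). Rel, the subunit most typical of activated lymphocytes, changed by -1.54 ± 0.12 in transgenic and -1.66 ± 0.12 in wild type cells. Ikbkb, which encodes the kinase IKK-beta, changed by -1.31 ± 0.090 and -1.60 ± 0.090, and Ikbkg, the scaffold NEMO, by -1.11 ± 0.089 and -1.22 ± 0.089. Nfkbib, an inhibitor, rose by 0.25 and 0.40. With array medians subtracted, 4 fell and 2 rose in transgenic and 3 fell and 2 rose in wild type cells, with Rel, Ikbkb and Ikbkg still lower in both. Of 3 measured genes of the alternative pathway, Relb and Nfkb2 fell in both genotypes. Relb, the partner of the p52 subunit, changed by -0.88 in transgenic and -0.56 in wild type cells (-0.35 and -0.087 with array medians subtracted), and Nfkb2, the p52 precursor, by -0.55 and -0.39, with the sign of Nfkb2 turned when array medians were subtracted (0.11 and 0.22). On that scale 1 of the 3 was called lower in transgenic and 0 in wild type cells. By genotype 1 of these 10 genes was called, Ikbkb in unstimulated cells (-0.41 ± 0.095, adjusted p = 0.0181). In that state 10.4% of all genes were called, 4.9% lower, and in stimulated cells 2.34% were called. Ikbkb was not called without wild type unstimulated replicate 1.

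Other receptors of the TNF receptor family numbered 15. In unstimulated cells 5 of the 15 were called higher in transgenic cells and 0 lower, where 5.45% of all genes were higher: Tnfrsf1a (0.79 ± 0.090), the TNF receptor of most cell types, Tnfrsf14 (0.61 ± 0.13), which binds LIGHT and BTLA, Ltbr (0.47 ± 0.12), the lymphotoxin receptor of stromal and myeloid cells, Tnfrsf21 (0.40 ± 0.10) and Tnfrsf9 (0.37 ± 0.11). The count was 2 without wild type replicate 1, and 4 with array medians subtracted. In unstimulated wild type cells Tnfrsf21 averaged 6.23 and Tnfrsf9 6.01, close to the unstimulated array medians of 5.97 to 6.05. Myeloid markers were higher in the same comparison: 11 of 12 were called higher and 0 lower (10 higher without that array), with a median of 1.15 and a summed linear level of 8557 to 12930 in transgenic and 4090 to 5282 in wild type cells. For granulocyte markers it was 8 of 9 higher and 0 lower, with or without that array, with a median of 3.36 and a sum of 9701 to 14081 in transgenic and 701 to 815 in wild type cells. In wild type cells 8 of the 12 and 7 of the 9 lay above the mean array median, and the part of these cells in the receptor differences was not tested. Of the other marker lists, marginal zone (6 of 8), erythroid (4 of 5), T and NK cell (4 of 11) and platelet genes (1 of 5) had called members in unstimulated cells, all higher in transgenic cells, and B cell (1 of 8) and follicular genes (1 of 5) had lower ones. When wild type replicate 1 was left out, the B cell and platelet calls were 0 and the marginal zone calls 5, and the other 3 counts did not change. In stimulated cells none of the 15 receptors was called between the genotypes, where 2.34% of all genes were called. The stimulation change of Tnfrsf1a was lower in transgenic cells by -0.70 ± 0.13 (adjusted p = 0.0155). It was the 1 interaction called in this list, where 1.98% of all genes had one.

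With stimulation 3 of the 15 receptors rose and 5 fell in transgenic cells, and 4 rose and 5 fell in wild type cells, with the shares over all genes as given for the TRAF partners. As deposited, 2 rose and 12 fell in transgenic and 2 rose and 11 fell in wild type cells, and with array medians subtracted 6 rose and 5 fell in transgenic and 6 rose and 4 fell in wild type cells. Fas, the death receptor, rose by 1.60 ± 0.097 in transgenic and 1.06 ± 0.097 in wild type cells, and Tnfrsf8, which encodes the activation marker CD30, by 1.44 ± 0.16 and 1.31 ± 0.16. Tnfrsf18, which encodes GITR, changed by -1.62 ± 0.11 and -1.33 ± 0.11, and Tnfrsf1a by -1.63 ± 0.096 and -0.77 ± 0.096. All 4 kept their direction and call on each scaling.

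Survival and activation genes that CD40 or BAFF signals are known to raise were measured for 13 of 16 listed genes. With stimulation 6 rose and 5 fell in each genotype, against 35.2% of all genes higher and 23.3% lower in transgenic and 36% and 24% in wild type cells. With array medians subtracted, 9 rose and 1 fell in transgenic and 8 rose and 2 fell in wild type cells, with Mcl1 and Cd83 turned from lower to higher. Ccl22, a chemokine that attracts T cells, rose by 3.58 ± 0.12 in transgenic and 4.28 ± 0.12 in wild type cells. Bcl2l1, which encodes the survival protein BCL-XL, rose by 1.33 ± 0.11 and 1.47 ± 0.11, while Bcl2, another survival protein, changed by -0.92 and -1.02. Icosl, the ligand of ICOS, changed by -3.44 ± 0.12 and -3.55 ± 0.12. Between the genotypes 1 was higher and 1 lower in stimulated cells, where 2.34% of all genes were called (1.24% higher, 1.1% lower): Cd80 at 0.50 ± 0.10 (adjusted p = 0.0275) and Ccl22 at -0.67 ± 0.12 (adjusted p = 0.0132). In unstimulated cells Cd86 (0.89 ± 0.095) and Cd80 (0.39 ± 0.10) were higher and Slamf1 (-0.58 ± 0.094) was lower. In that state 10.4% of all genes were called (5.45% higher, 4.9% lower). Cd80 and Cd86 encode the ligands of CD28 and are also made by the myeloid cells whose markers are given above. The part of those cells in the Cd80 and Cd86 differences was not tested. Of the 13, Slamf1 (0.63), Ccl22 (-0.84) and Cd86 (-0.61) had called interactions, where 1.98% of all genes had one. The interaction of Cd86 was lost without wild type unstimulated replicate 1 (-0.53, adjusted p = 0.0551).

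**Figure D4:**
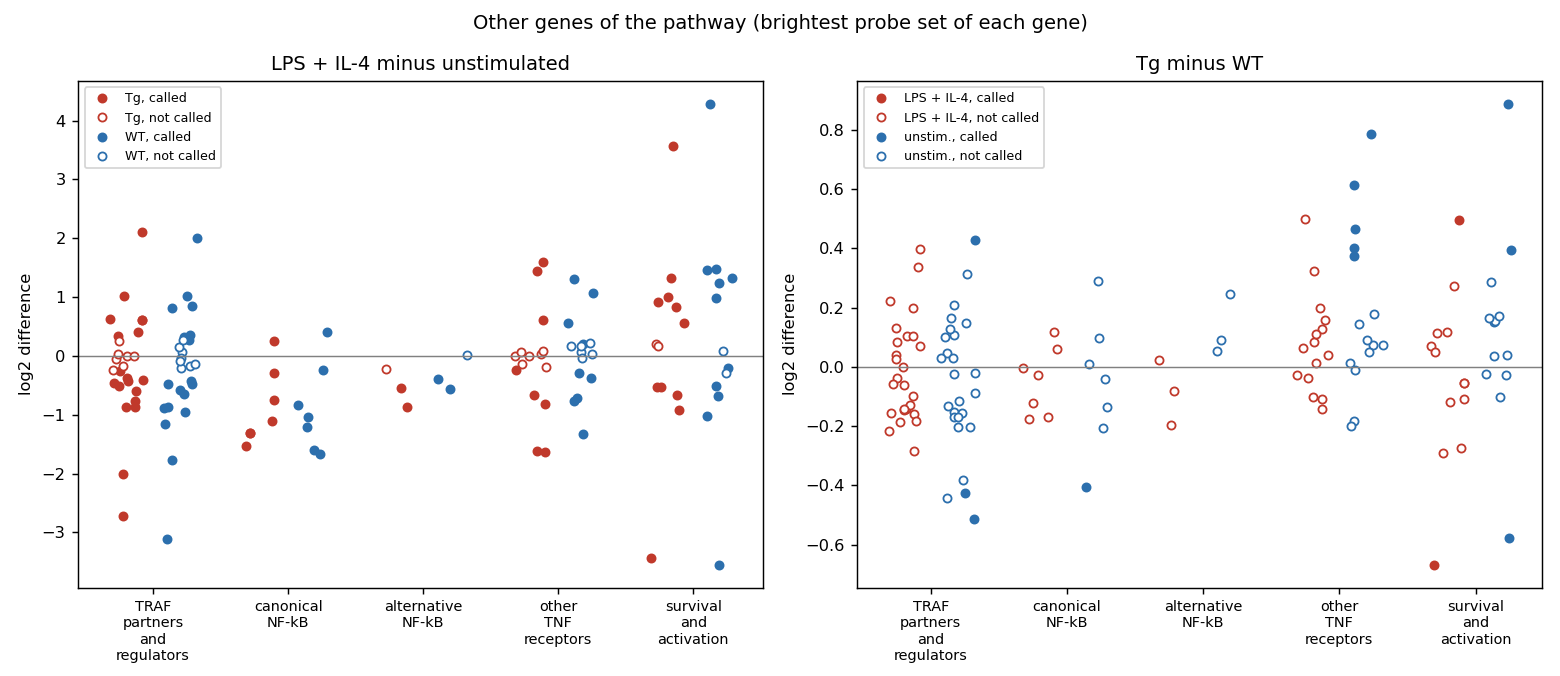
Log2 differences of the other genes of the pathway at the brightest probe set, 1 point per gene, by list: change with stimulation (left) in transgenic (Tg) and wild type (WT) cells, and transgenic minus wild type (right) in stimulated and unstimulated cells. Filled points are called. Ccl22 (3.58 and 4.28) and Icosl (-3.44 and -3.55) mark the ends on the left. On the right, the 5 called receptors lie above 0 in unstimulated cells, where 10.4% of all genes were called. None is called in stimulated cells, where 2.34% of all genes were.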

How the data were processed

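Total RNA of 12 samples was hybridized to Affymetrix Mouse Genome 430 2.0 arrays from 4 µg each. The authors deposited log2 values per probe set. RMA and affy are the tools listed in the submitters' processing notes, without versions. No source used here says whether all arrays were normalized in 1 run. Distributions differ between the states, so stimulation changes were computed after normalizeQuantiles and all other comparisons on deposited values.

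The 64 control probe sets among 45101 were dropped. The array annotation gives 34945 probe sets 1 symbol, 932 several and 9160 none. Tests used limma 3.58.1 (R 4.3.3) with 1 coefficient per group over 12 arrays, no covariates, 2-sided moderated tests, Benjamini-Hochberg adjustment over 45037 probe sets. The procedure was tested on simulated data. For unstimulated transgenic against wild type cells it recovered 53.7% of simulated differences of size 0.5 and 97% of those of size 1. An uncalled difference can therefore be a real one. For statements on genes the brightest probe set stood for each gene, and summed marker levels add linear values of those probe sets. Alternatives changed the scaling, the filter on dim probe sets, the prior, the arrays fitted, a replicate block and the size of change.

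Named are all member probe sets, with full values for the brightest of each gene and those called past 1 on the log2 scale. The 3 most alike genes are named for members spanning at least 1. From each list some called genes are named, of both directions where both occurred, and they are not always the largest changes. With stimulation Rela changed by -1.31 in transgenic and -0.84 in wild type cells, and Cd44 by 0.84 and 1.47. Members, lists and tests were chosen with earlier results of these data known. List counts without wild type unstimulated replicate 1 were added after its control values were seen.

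Same-numbered replicates deviated together (every r over 0.1) between the stimulated genotypes (0.33, 0.10 and 0.18) and between the wild type states (0.32, 0.18 and 0.19), by the deposited values alone: no label gives a pairing.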

Additional observations from a re-analysis of the deposited data

How the results depend on the processing

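The count of called member probe sets in unstimulated transgenic against wild type cells was 1 and became 2 after quantile normalization (Traf1 higher, Traf6 lower), 0 when only the 6 arrays compared were fitted, 0 with a change of at least 1 required, and 1 to 3 with single arrays left out. Over all probe sets that count was 4256, 1908 with the 6 arrays alone and 7518 without wild type unstimulated replicate 3. In stimulated cells it was 0 under every alternative run. The interaction count was 0, and 0 to 1 with single arrays left out. A change of at least 1 left 3 of 11 calls for stimulation in wild type and 4 of 10 in transgenic cells, and leaving out single arrays gave 10 to 12 and 9 to 10. With the replicate block the counts were 1, 0, 11, 10 and 0 for unstimulated genotypes, stimulated genotypes, wild type stimulation, transgenic stimulation and the interaction, the same as without it, and no single call changed. The replicate numbers did not pair the samples between the unstimulated genotypes (r = 0.078, 0.070 and 0.30) or the transgenic states (0.069, -0.16 and 0.12). Among values called on at least 1 scale, directions turned for wild type stimulation of Tnfrsf13c (0.27 as deposited, 0.89 with array medians subtracted), Traf6 1446940_at (-0.58 as deposited) and Traf2 (-0.010 as deposited), and for transgenic stimulation of Traf2 (-0.17 as deposited), while Traf1 1445452_at turned without a call (0.25 in wild type and 0.12 in transgenic cells with array medians subtracted); the cause was not tested. Of all single values under alternatives, 991 kept their side of the threshold, of which 946 also kept their sign and 45 changed sign while never called. A further 22 became called, 7 lost their call and 5 turned where a call was involved. Low signal, below the array medians, limits Tnfrsf17 and Traf6 1421377_at in stimulated cells, and Traf5 1447682_x_at, Traf6 1446940_at and Traf6 1443288_at in all groups. Tnfrsf17 was also close to the array median in unstimulated wild type replicates 2 and 3.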
